A study of Rattus norvegicus with 74 samples.

Results

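Liver gene expression in rat pups given 0.1 mg/kg DE-71, the lowest dose of this mixture in the series above its vehicle group, was compared with that in pups given 0 mg/kg. DE-71 is a commercial flame retardant made mainly of tetra- and pentabrominated diphenyl ethers. The arrays were chosen by their agent and dose labels, which gave 5 arrays at 0.1 mg/kg and 5 at 0 mg/kg, 10 of the 74 arrays of the series. All were from Wistar Han rats (Crl:WI (Han)), an outbred stock, and RNA came from the left liver lobe at postnatal day 22. Dams were gavaged from gestation day 6 to 21 and pups from postnatal day 12 to 21. The same schedule is stated for the other DE-71 groups used, 15 mg/kg (5 arrays) and 50 mg/kg (4 arrays), and for BDE-47, a single tetrabrominated congener, at 0, 0.1 and 50 mg/kg. Lists of responsive genes were taken from BDE-47 at 50 mg/kg and from groups gavaged with phenobarbital at 45 mg/kg and PCB126 labelled 250 mg/kg, for which the dosing days are not stated. Sex and litter are not given, so p-values measure the spread between these arrays, which may share dams.

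Polybrominated diphenyl ethers of this kind act on the liver largely through ligand-responsive transcription factors. The constitutive androstane receptor (CAR) and the pregnane X receptor (PXR) switch on cytochrome P450s of the 2B, 2C and 3A families, carboxylesterases, conjugating enzymes and export pumps, and phenobarbital is the classic CAR activator. The aryl hydrocarbon receptor (AhR) binds planar dioxin-like molecules such as PCB126 and switches on the 1A and 1B cytochrome P450s. Induced conjugation of thyroxine in the liver is a known route by which such compounds lower circulating thyroid hormone.

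Hepatocyte markers were as high at 0.1 mg/kg as in the controls. The log2 values of the 9 measured markers summed to 115.3 to 118.7 at 0.1 mg/kg and to 114.6 to 119.3 at 0 mg/kg. Eif2s3y and Uty, genes of the Y chromosome, lay between 8.47 and 9.42 and between 7.19 and 8.11 in the 10 arrays, while Xist, which is transcribed from an inactive X, lay between 2.82 and 3.14. Replicate 2 of 0.1 mg/kg stood apart from its group in the direction of the higher doses. Over the 300 most variable bright genes its mean root mean square difference was 0.932 log2 units to the 15 mg/kg arrays, 1.04 to the others of its own group and 1.11 to the controls, and its nearest array was replicate 4 of 15 mg/kg (0.79). Whether it carries its labelled dose was not tested, and a mislabelled array would change the meaning of every value over all 5 arrays. Differences are therefore given over all 5 arrays and again over the other 4. Because this array was singled out for its induced values, smaller differences of induced genes without it follow in part from that choice. Replicate 3 of 0.1 mg/kg had the most genes in which 1 array lay far from the other 4 (376, against 75 to 148 in the other arrays of the dose).

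No gene passed the test for a difference between 0.1 and 0 mg/kg. The linear model fitted with limma to 14217 genes called 0 of them (0.0%) at an adjusted p below 0.05, and the lowest adjusted p was 0.43. At an unadjusted p below 0.05 there were 908 genes (6.39%), 434 of them higher (3.05%) and 474 lower (3.33%). With replicate 2 left out, limma again called 0 genes and the lowest adjusted p was 0.51. Then 858 genes (6.04%) had an unadjusted p below 0.05, 409 higher (2.88%) and 449 lower (3.16%), of which 595 were also among the 908. The 10216 probe sets that name no gene or several gave 0 calls as well, with 632 at an unadjusted p below 0.05 and 637 without replicate 2. The design could show larger effects, since the fit over all groups called 177 genes between 15 and 0 mg/kg.

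AhR-driven genes were led by Cyp1a1, the P450 most sensitive to AhR agonists. Its log2 value was 7.05, 12.10, 8.94, 8.29 and 9.96 in replicates 1 to 5 of 0.1 mg/kg and 6.80, 4.41, 8.05, 7.69 and 7.59 in those of 0 mg/kg. In 4 of the 5 treated arrays it lay above every control, while replicate 1 lay inside the control range. The mean difference was 2.36 (95% confidence interval 1.22 to 3.49), which missed the threshold after adjustment over all genes (adjusted p = 0.43). Leaving out replicate 2 gave 1.65 (0.57 to 2.74, adjusted p = 0.70). Replicate 2 of 0 mg/kg was the lowest control. With replicate 2 of both 0 and 0.1 mg/kg left out, an alternative chosen after seeing the data, the difference was 1.03. Without replicate 1 of 0.1 mg/kg it was 2.91 with an adjusted p of 0.046. At 15 mg/kg the gene stood at 11.84 to 13.39, so that only the treated replicate 2 reached the range of that dose.

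The other P450s under AhR control lay closer to the controls. Cyp1a2, a hepatocyte P450 with a high basal level, was at 12.65, 13.22, 13.23, 12.31 and 13.28 at 0.1 mg/kg and at 12.24, 12.17, 12.53, 12.88 and 13.19 at 0 mg/kg, and the groups overlapped. Its difference was 0.34 (0.02 to 0.65, adjusted p = 0.78) and 0.27 (-0.07 to 0.60, adjusted p = 0.87) without replicate 2. For Cyp1b1, an AhR target outside the 1A family, the arrays lay at 4.75 to 5.31 against 4.81 to 5.14, with 5.31 in replicate 2, and the difference was -0.05 (-0.92 to 0.82) and -0.14 (-1.06 to 0.79) without that array. Nqo1, a quinone reductase driven by AhR and by NRF2, was at 10.18 to 11.01 against 9.97 to 10.86, a difference of 0.33 (-0.38 to 1.04) and 0.25 (-0.51 to 1.0). Of the 14 AhR targets measured, 9 were higher with all arrays and 9 without replicate 2, and 2 and 1 of them had an unadjusted p below 0.05, where 3.05% and 2.88% of all genes were higher at that p. Their median difference was 0.10 and 0.07, against a median of 0.0 over all genes in both cases.

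Targets of CAR and PXR were high in replicate 2 and close to the controls in the other 4 arrays. Cyp2c7, a P450 that phenobarbital induces in these rats, stood at 7.39, 12.88, 8.49, 7.61 and 8.96 at 0.1 mg/kg and at 5.34, 8.45, 7.63, 8.85 and 7.13 at 0 mg/kg. Only replicate 2 left the range of the controls by more than 0.2 log2 units, and it lay just below the 12.92 to 13.12 of the 15 mg/kg arrays. The mean difference was 1.59 (0.30 to 2.88, adjusted p = 0.74), and 0.63 (-0.54 to 1.80, adjusted p = 0.92) without replicate 2.

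**Figure D1:**
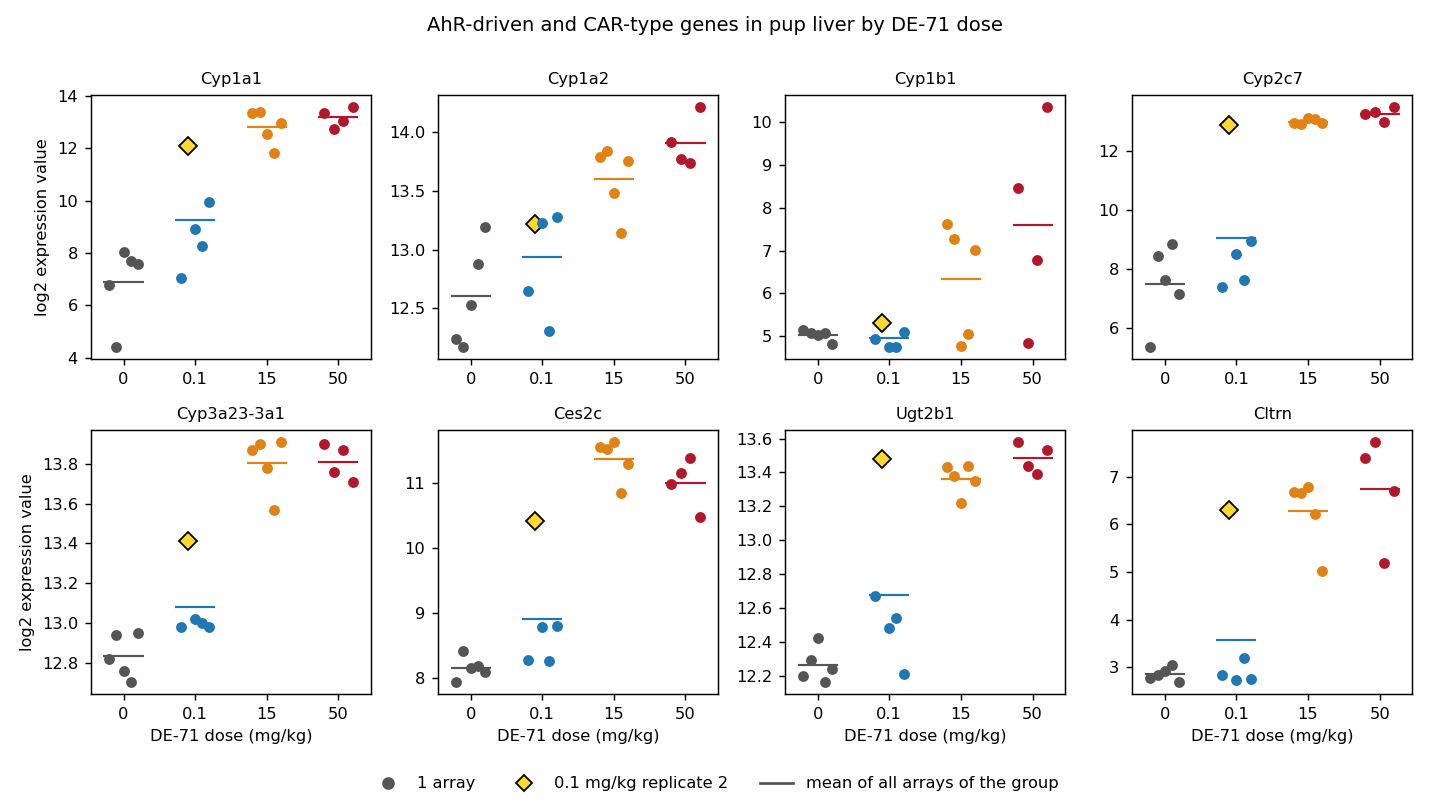
Log2 expression value (vertical axis) of 8 genes in each array by DE-71 dose (horizontal axis, mg/kg), with circles for arrays, a yellow diamond for replicate 2 of 0.1 mg/kg and lines for group means. The diamond lies at 12.88 for Cyp2c7 and 6.31 for Cltrn, at the level of the 15 mg/kg arrays, while for Cyp1b1 it lies at 5.31, near the controls.

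Ces2c and Ugt2b1 were highest in replicate 2 but lay above the controls in other treated arrays too. Ces2c, a carboxylesterase, was at 8.28, 10.42, 8.79, 8.26 and 8.80 against control values of 7.93, 8.41, 8.16, 8.19 and 8.09, so that replicates 2, 3 and 5 lay above every control and replicate 2 by the most. The difference was 0.75 (0.28 to 1.23, adjusted p = 0.57), and 0.38 (-0.04 to 0.79, adjusted p = 0.84) without that array. Ugt2b1, a UDP-glucuronosyltransferase, was at 12.67, 13.48, 12.48, 12.54 and 12.21 against 12.20, 12.29, 12.42, 12.16 and 12.24. All treated arrays but replicate 5 were above every control, and the difference was 0.42 (0.18 to 0.65, adjusted p = 0.53) and 0.22 (0.01 to 0.42, adjusted p = 0.82) without replicate 2.

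Some genes were at the control level in every treated array but that one. Cltrn, which encodes collectrin, was at 2.84, 6.31, 2.74, 3.20 and 2.75 at 0.1 mg/kg, with controls between 2.68 and 3.05. Its difference of 0.71 (-0.04 to 1.47, adjusted p = 0.79) became 0.03 (-0.58 to 0.64, adjusted p = 1.0) when replicate 2 was left out. The estrogen sulfotransferase gene Sult1e1 was at 9.47 in replicate 2, at 3.26 to 3.83 in the other 4 arrays and at 3.58 to 3.97 in the controls, which gave 1.01 (-0.18 to 2.19) with it and -0.16 (-1.05 to 0.74) without it. For Cyp2a3, a P450 that also rose with phenobarbital, replicate 2 was the highest of the 10 arrays as well (8.82), but the other treated arrays (4.91 to 7.08) reached below the controls (5.66 to 8.20). Its difference was -0.09 (-1.15 to 0.98) and -0.62 (-1.68 to 0.43) without replicate 2, and it turned to 0.35 without replicate 4.

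A few CAR and PXR targets had higher values outside replicate 2 too, but without that array the intervals of those named next include no difference. Cyp3a23-3a1, a PXR-driven P450, was at 12.98, 13.41, 13.02, 13.00 and 12.98 against 12.82, 12.94, 12.76, 12.70 and 12.95, and all 5 treated arrays lay above every control. Its difference was 0.24 (0.02 to 0.46, adjusted p = 0.78) and 0.16 (-0.07 to 0.38, adjusted p = 0.88) without replicate 2. The bile salt and conjugate exporter Abcc3 differed by 0.48 and 0.37, the epoxide hydrolase Ephx1 by 0.58 and 0.40, and the retinal dehydrogenase Aldh1a1 by 0.31 and 0.17 with and without that array, all with adjusted p-values of 0.78 or more.

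Probe sets shared by Cyp2b1 and Cyp2b2, P450s of the 2B family, were tested apart and are not in the list of CAR and PXR targets. Over the 21 CAR and PXR targets measured, 18 were higher with all arrays and 15 without replicate 2. An unadjusted p below 0.05 was reached by 7 of them in the upward direction (background 3.05%) and by 1 without replicate 2 (background 2.88%), Ugt2b1. Their median difference was 0.20 and 0.12, beside 0.98 at 15 mg/kg against the same controls. The median deviation of the list from the control mean was 0.13, 0.57, 0.25, 0.05 and 0.15 in replicates 1 to 5, and ran from -0.05 to 0.04 in the controls, which the list's own centring keeps near 0. Every treated array lay above every control by this measure, replicate 4 by the least.

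**Figure D2:**
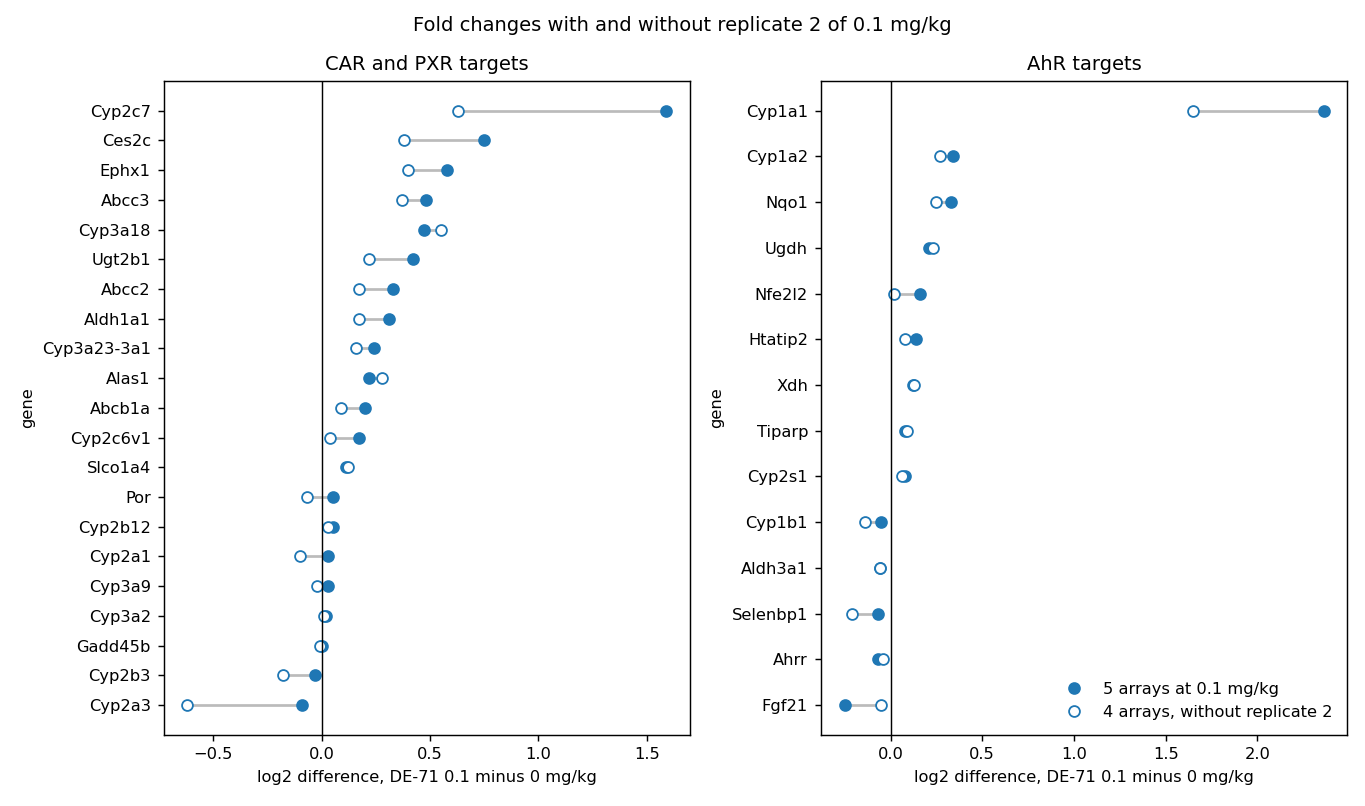
Log2 difference between 0.1 and 0 mg/kg DE-71 (horizontal axis) for each measured CAR and PXR target and each AhR target (vertical axis), with filled circles for all 5 treated arrays and open circles for the 4 without replicate 2. The filled circle of Cyp2c7 is at 1.59 and the open one at 0.63, and those of Cyp1a1 are at 2.36 and 1.65.

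Genes that phenobarbital or BDE-47 raised elsewhere in the series were also highest in replicate 2, and those raised by PCB126 were high in other arrays as well. Of the 112 genes (0.788%) called and at least 1.5-fold higher at 45 mg/kg phenobarbital, 92 were higher at 0.1 mg/kg DE-71 and 83 without replicate 2. Their median difference was 0.22 and 0.14, and 22 and 3 of them had an unadjusted p below 0.05 upward, beside 3.05% and 2.88% of all genes. Without replicate 2 the share of the list at that p was thus no larger than that of all genes. By array the median deviation was 0.02, 0.58, 0.17, 0.18 and 0.04, against -0.08 to 0.03 in the controls. For the 154 genes (1.08%) called and at least 1.5-fold higher at 50 mg/kg BDE-47, the median was 0.17 and 0.11, with 25 and 6 below that p, the latter near the background of 2.88%. The 66 genes (0.464%) lowered at least 1.5-fold by phenobarbital had medians of -0.05 and 0.03, with a deviation of -0.35 in replicate 2 and -0.11 to 0.27 in the other treated arrays. The 8 genes (0.0563%) raised by PCB126, Cyp1a1 and Cyp1a2 among them, had a median of 0.24 either way, with deviations of 0.09, 0.64, 0.35, -0.16 and 0.43 in replicates 1 to 5 and of -0.09 to 0.17 in the controls.

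Replicate 2 was the highest of the 10 arrays in 63 of the 112 genes raised by phenobarbital, in 75 of the 154 raised by BDE-47 and in 14 of the 21 CAR and PXR targets, where 9.73% of all genes had it highest. It was the lowest in 29 of the 66 genes lowered by phenobarbital, against 11.8% of all genes. In 5 of the 14 AhR targets it was the highest. These shares describe an array chosen for its values and carry no test.

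Some of the genes in which replicate 2 lay farthest from the other 4 arrays of its dose shifted the same way at 15 mg/kg. Others did not. Cyp2c11, a male-biased P450 of adult liver, was at 9.38 in it and at 6.10 to 6.99 in the others, and the sulfotransferase gene Sult1b1 at 12.44 against 9.91 to 11.13. At 15 mg/kg these genes were at 7.57 to 9.45 and 11.52 to 12.42. The chemokine gene Cxcl13 was low in it (6.11, others 7.91 to 9.36, 15 mg/kg arrays 5.97 to 8.13), and so was Qsox1, a sulfhydryl oxidase (6.36, others 8.20 to 8.50, 15 mg/kg arrays 6.19 to 7.74). Scd, the stearoyl-CoA desaturase of fatty acid synthesis, ran the other way: it was at 10.97 in replicate 2 and at 6.22 to 9.38 in the other treated arrays, while the 15 mg/kg arrays lay at 4.95 to 5.69. Wfdc21 was at 9.0 there, above the 5.60 to 6.57 of the others and the 5.41 to 6.45 at 15 mg/kg.

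Interferon-stimulated genes were the list most evenly higher at 0.1 mg/kg in counts, although none of its members passed the test. These genes are switched on by type I and type II interferons through STAT and IRF factors and encode antiviral proteins, guanylate-binding and immunity-related GTPases and parts of the antigen-processing machinery. All 22 measured members were higher, with all arrays and without replicate 2, and 15 and 13 of them had an unadjusted p below 0.05 (background 3.05% and 2.88%). The median difference was 0.52 and 0.53. Their lowest adjusted p was 0.43, and 0.51 without replicate 2. With only the 10 arrays in the fit, 12 of the 22 had an unadjusted p below 0.05 upward, beside 224 of 14217 genes.

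Gbp2, a guanylate-binding protein, was at 6.47, 5.98, 7.17, 6.94 and 6.70 at 0.1 mg/kg and at 4.64, 5.56, 6.29, 5.94 and 5.63 at 0 mg/kg. Replicate 2 was the only treated array inside the control range. The difference was 1.04 (0.52 to 1.56, adjusted p = 0.43), and 1.21 (0.66 to 1.75, adjusted p = 0.51) without it. Mx2, an antiviral dynamin-like GTPase, was at 4.80, 5.43, 6.77, 5.43 and 5.31 against 4.54, 4.63, 5.04, 4.99 and 4.34, with replicate 3 far above the rest and replicate 1 inside the control range. It differed by 0.84 (0.40 to 1.28, adjusted p = 0.43) and by 0.87 (0.40 to 1.34, adjusted p = 0.51) without replicate 2. Isg15, a ubiquitin-like modifier, was at 6.12, 6.98, 7.95, 6.80 and 6.5 against 5.84, 5.73, 6.44, 6.10 and 5.93. Its difference was 0.86 (0.35 to 1.38, adjusted p = 0.53) and 0.84 (0.28 to 1.39, adjusted p = 0.70).

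Psmb9, a subunit of the immunoproteasome that trims peptides for MHC class I, was at 7.54, 7.92, 8.01, 7.73 and 7.96 against 7.13, 6.96, 7.39, 7.45 and 7.30, with no overlap of the groups. It differed by 0.58 (0.19 to 0.98, adjusted p = 0.65) and by 0.56 (0.14 to 0.99, adjusted p = 0.75) without replicate 2. The following members were picked after their values were seen. The partner subunit Psmb8 differed by 0.81 and 0.84, the peptide transporter Tap1 by 0.50 and 0.49, and the ISG15 protease Usp18 by 0.84 and 0.92. Irf7, a transcription factor of the interferon loop, differed by 0.56 and 0.60, the GTPase Igtp by 0.70 and 0.67, the 2′-5′ oligoadenylate synthetase Oas1a by 0.53 and 0.57, and the chemokine Cxcl9 by 0.85 and 0.62. Mx1 was at 6.25 in replicate 3, at 3.49 to 4.17 in the other treated arrays and at 3.36 to 3.82 in the controls. Its difference was 0.77 (0.25 to 1.28) and 0.98 (0.46 to 1.51) without replicate 2, and 0.29 without replicate 3.

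Replicate 3 carried the largest share of this shift. The list's median deviation was 0.20, 0.40, 0.98, 0.49 and 0.33 in replicates 1 to 5 and -0.14, -0.01, 0.25, 0.07 and -0.05 in the controls, so that replicate 1 of 0.1 mg/kg lay below replicate 3 of 0 mg/kg. Without replicate 3 all 22 members were still higher, with a median of 0.34. At an unadjusted p below 0.05 there were 10 of 22 upward, beside 297 of 14217 genes. Without replicates 2 and 3, an alternative chosen after seeing the data, the median was 0.33. Then 5 of 22 were below that p upward, beside 170 of 14217 genes. The medians at 15 and 50 mg/kg against the same controls were 0.30 and 0.75, and at 0.1 mg/kg BDE-47 against its own controls -0.04, with 0 of 22 members higher at an unadjusted p below 0.05 (background 1.68%).

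**Figure D3:**
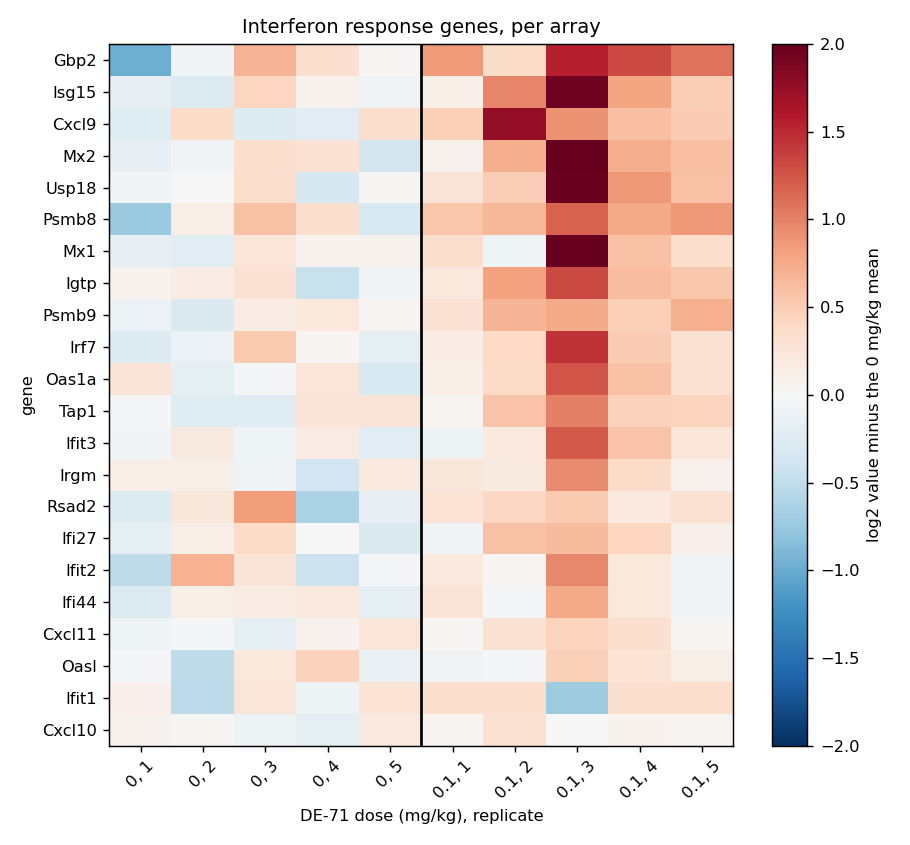
Log2 value minus the 0 mg/kg mean (colour, drawn as 2 where it is larger) for the 22 interferon response genes (vertical axis) in the 5 control and 5 treated arrays (horizontal axis, dose in mg/kg and replicate). Among the treated arrays the column median is highest in replicate 3 (0.98) and lowest in replicate 1 (0.20).

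Markers of macrophages moved with these genes in part. The 12 measured Kupffer cell and macrophage markers had a median difference of 0.20, with 11 higher. At an unadjusted p below 0.05 upward there were 3 (background 3.05%). Without replicate 2 the median was 0.31, with 12 higher and 7 below that p (background 2.88%). The count below that p was 0 of 12 without replicate 3 of 0.1 mg/kg (median 0.14), beside 297 of 14217 genes. It was also 0 of 12 without replicate 1 of 0 mg/kg (median 0.15), beside 384 of 14217 genes. In both cases 10 of the 12 were still higher. By array their median deviation was 0.07, -0.29, 0.46, 0.30 and 0.46 at 0.1 mg/kg and -0.23 to 0.18 in the controls. Their summed log2 values ran from 97.0 to 106.9 at 0.1 mg/kg and from 97.1 to 103.0 at 0 mg/kg. Replicate 2 was the lowest of the 10 arrays in 8 of the 12, while its interferon median was 0.40. Cd163, a scavenger receptor of resident macrophages, differed by 0.39 and 0.47, and Cd5l, an apoptosis inhibitor secreted by Kupffer cells, by 0.43 and 0.61 with and without replicate 2. The part of these cells in the interferon result was not tested. In whole liver, fewer cells of a type and less RNA per cell cannot be told apart. The 8 genes of MHC class II presentation had a median of 0.19 and 0.29. Of these, 0 had an unadjusted p below 0.05 in either direction (background 6.39% and 6.04%). The 15 lymphocyte markers had a median of -0.02 either way.

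The letters of the interferon-stimulated response element were looked for in the promoters of the listed interferon response genes. The list was made of known interferon-stimulated genes and the search used no expression value. The share found therefore says nothing about these arrays. The letters were TTTC, any 2 bases and TTTC, with GAAA, any 2 bases and GAAA as the other strand, in the window from 250 bases before to 50 after each gene's start in RefSeq's table for GRCr8. Of the 22 genes, 17 had an entry and 12 of these held the motif (70.6%), as did 3.77% of the 27457 promoters in the table. A match is a description of letters, not of binding. For 4 members, 100 of the 300 bases are printed 5′ to 3′ on the gene's strand around the motif, which is in capitals, to show where it lies before the start.
Gbp2 (chr2:234005651-234005750, + strand): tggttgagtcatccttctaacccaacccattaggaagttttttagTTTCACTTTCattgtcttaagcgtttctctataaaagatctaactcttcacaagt
Igtp (chr10:42874899-42874998, + strand): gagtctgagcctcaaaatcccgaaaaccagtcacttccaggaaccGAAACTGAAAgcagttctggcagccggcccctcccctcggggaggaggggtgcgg
Irf7 (chr1:205800038-205800137, - strand): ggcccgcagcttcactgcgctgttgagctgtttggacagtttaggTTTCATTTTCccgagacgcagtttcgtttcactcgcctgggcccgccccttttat
Oas1a (chr12:41330383-41330482, + strand): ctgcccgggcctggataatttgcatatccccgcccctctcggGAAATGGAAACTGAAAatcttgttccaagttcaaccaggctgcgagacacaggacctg
Relative to the gene's start, the first base of the motif lay at -31 in Gbp2, at -103 in Igtp and at -69 in Irf7. Oas1a held 2 overlapping matches, at -41 and -35, which the capitals join.

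Lipid synthesis genes varied more between arrays than between doses. The median deviation of the 19 cholesterol synthesis and uptake genes was 0.20, 0.78, -0.62, 0.57 and 0.18 at 0.1 mg/kg and 0.29, -0.47, 0.12, 0.00 and 0.08 at 0 mg/kg. Replicates 2 and 4 were above and replicate 3 below every control. The median difference was 0.20 and 0.08 without replicate 2. Upward 1 and 0 members had an unadjusted p below 0.05 (background 3.05% and 2.88%). Cyp51, the lanosterol demethylase, spanned 9.21 in replicate 3 to 11.86 in replicate 2 against 9.82 to 10.74 in the controls, with a difference of 0.42 and 0.17. The 21 fatty acid synthesis genes ranked the treated arrays alike, with deviations of 0.12, 0.40, -0.32, 0.39 and 0.05 and a median difference of 0.15 and 0.08. Their control deviations ran from -0.36 to 0.25, so that replicate 3 lay inside the control range here. For Scd the difference was 0.83 (-0.57 to 2.24) and 0.13 (-1.27 to 1.53).

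**Figure D4:**
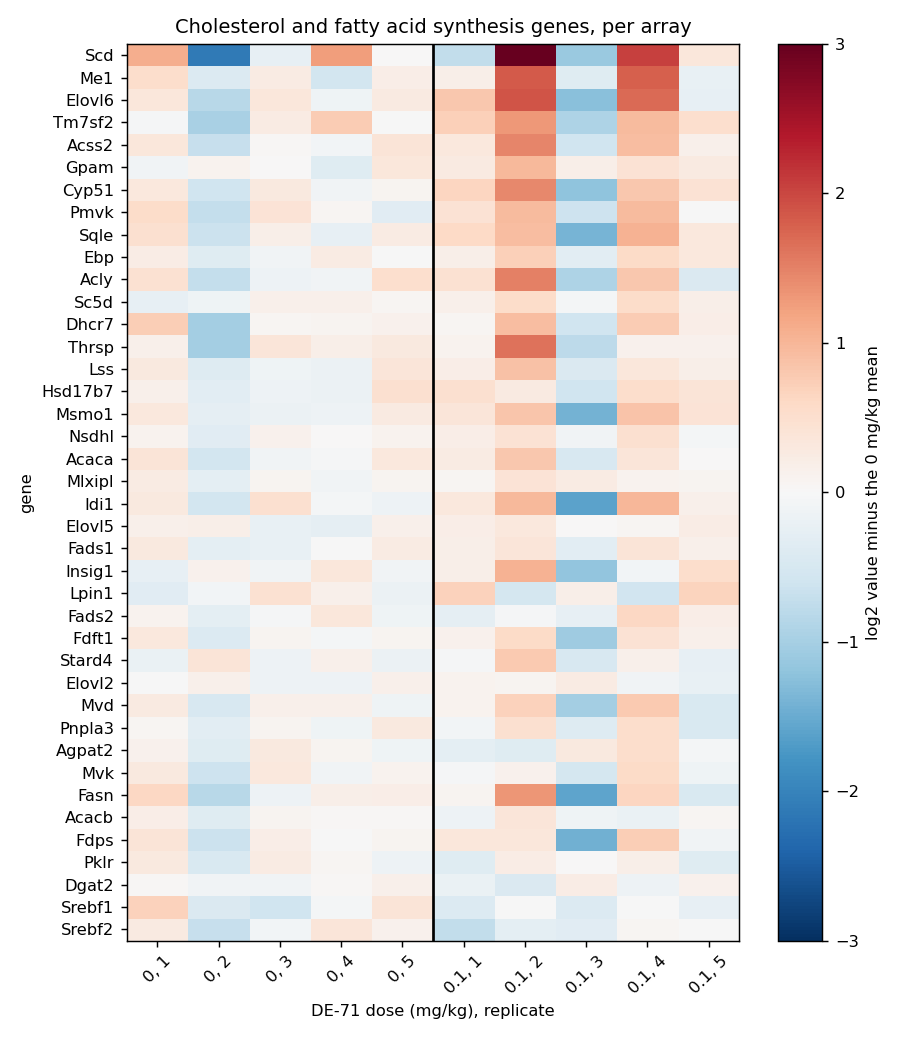
Log2 value minus the 0 mg/kg mean (colour, drawn as 3 where it is larger) for cholesterol and fatty acid synthesis genes (vertical axis) in the control and treated arrays (horizontal axis, dose in mg/kg and replicate). Values above the control mean are red and those below it blue, and the medians of the cholesterol genes are 0.78, 0.57 and -0.62 in replicates 2, 4 and 3 of 0.1 mg/kg.

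Antioxidant genes under NRF2 control overlapped the controls by array. Their median deviation was 0.07, 0.45, 0.11, 0.28 and 0.18 in replicates 1 to 5 of 0.1 mg/kg and 0.31, -0.04, -0.07, -0.20 and -0.06 in the controls, so that control replicate 1 lay above every treated array but replicate 2. Of 21 measured, 18 were higher with and without replicate 2, with median differences of 0.22 and 0.16. An unadjusted p below 0.05 upward was reached by 2 and 1, beside 3.05% and 2.88% of all genes. Hmox1, the heme oxygenase, was at 8.50, 8.16, 8.65, 10.03 and 8.63 against 8.24, 8.10, 7.96, 7.88 and 8.27. Replicates 1, 3, 4 and 5 lay above every control, replicate 4 by the most, and replicate 2 lay inside the control range. The Hmox1 difference was 0.70 (-0.03 to 1.43, adjusted p = 0.79) and 0.86 (0.09 to 1.63, adjusted p = 0.80) without replicate 2. Without replicate 4 it was 0.39.

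**Figure D5:**
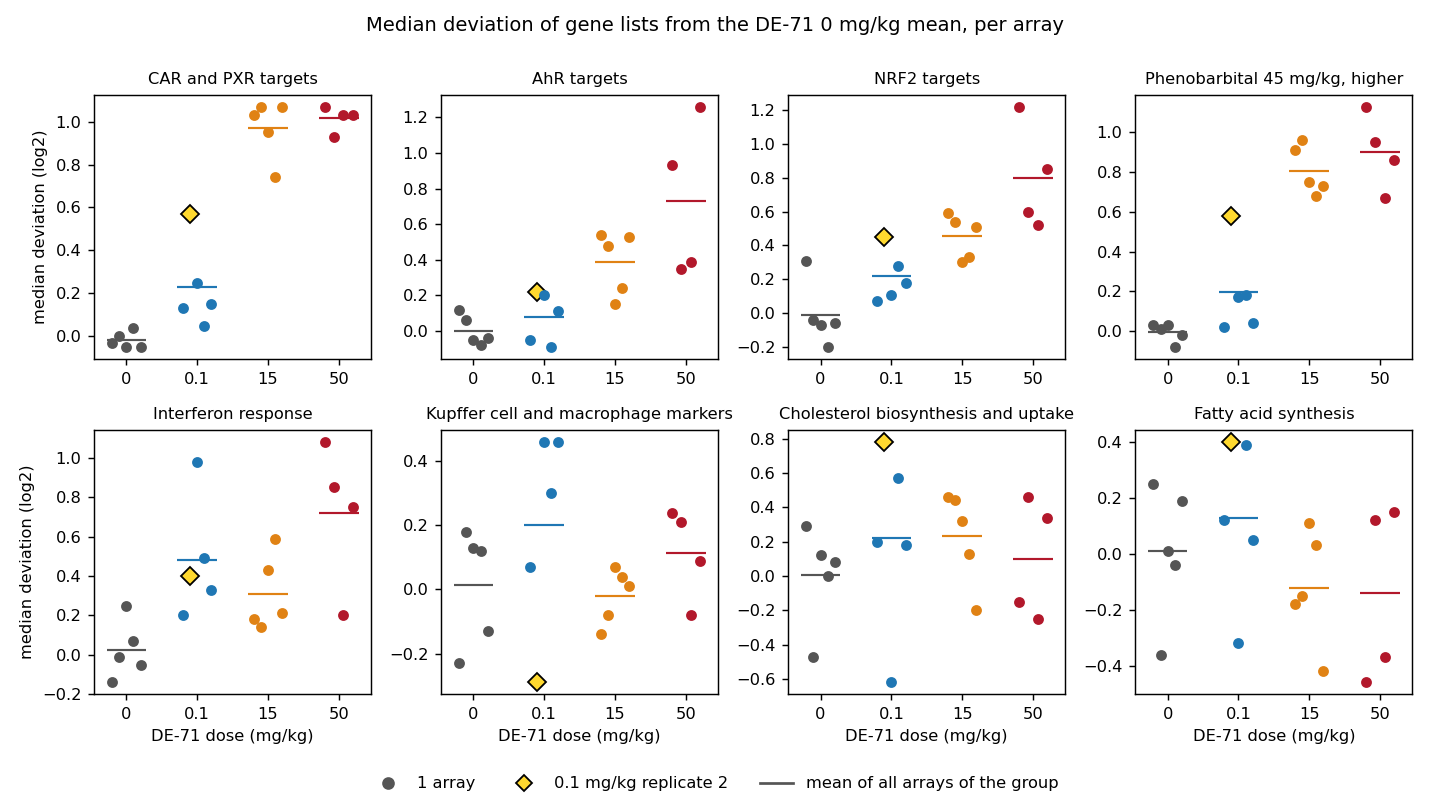
Median deviation of 8 gene lists from the mean of the 0 mg/kg arrays (vertical axis, log2) in each array by DE-71 dose (horizontal axis, mg/kg), with circles for arrays, a yellow diamond for replicate 2 of 0.1 mg/kg and lines for group means. The diamond lies at 0.57 for the CAR and PXR targets and at -0.29 for the macrophage markers, on opposite sides of the other 4 treated arrays.

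Thyroid, bile acid and cell cycle genes held few members at an unadjusted p below 0.05. Of the 17 genes of thyroid hormone handling and response, 0 had an unadjusted p below 0.05 upward (background 3.05% and 2.88%). Downward there was 1 with all arrays and 1 without replicate 2 (background 3.33% and 3.16%). The medians of this list were 0.11 and 0.08. Dio1, the deiodinase whose gene follows thyroid status, was at 7.18 to 7.91 against 6.59 to 7.89, a difference of 0.23 (-0.36 to 0.82) and 0.17 (-0.45 to 0.80). Serpina7, thyroxine-binding globulin, was lowest in replicate 2 (8.75, others 10.18 to 10.86, controls 10.02 to 11.33). Of the 25 genes of bile acid synthesis and transport, 15 were higher with all arrays and 21 without replicate 2, with medians of 0.05 and 0.14. Upward 2 and 1 of them had an unadjusted p below 0.05 (background 3.05% and 2.88%), and downward 1 and 1 (background 3.33% and 3.16%). Cyp7a1, which catalyses the first step from cholesterol to bile acids, differed by 0.51 (-0.34 to 1.35) and 0.72 (-0.16 to 1.61). The 24 cell cycle genes had a median of -0.11 either way. Of these, 1 and 0 were lower at an unadjusted p below 0.05 (background 3.33% and 3.16%).

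Genes whose 10 arrays separated by dose were few and their differences small. In 26 genes (0.183%) every treated array lay above every control and in 45 (0.317%) below, and without replicate 2 these were 55 (0.387%) and 82 (0.577%). Among the brighter of them with the lowest p were Trappc13, a subunit of a membrane trafficking complex (0.34 and 0.27, adjusted p = 0.43 and 0.59), the cell adhesion gene Igsf11 (0.48 and 0.42), Maoa, the monoamine oxidase A (0.41 and 0.33), the membrane fusion gene Snap29 (0.27 and 0.23) and Vmp1, of autophagosome formation (0.28 and 0.30). On the lower side stood Pgls, of the pentose phosphate pathway (-0.26 and -0.29), the kinase gene Gsk3a (-0.24 and -0.25), the transcription factor gene Foxl2 (-0.23 and -0.24), the exosome subunit gene Exosc5 (-0.24 and -0.26), Tmem143 (-0.18 and -0.16) and Ube2m, of the neddylation pathway (-0.16 and -0.18). The second value of each pair is without replicate 2, and none of these genes was called.

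The step from 0.1 to 15 mg/kg was visible in the CAR and PXR targets. With all arrays 61 genes (0.429%) were called between these doses, 44 higher (0.309%) and 17 lower (0.12%) at 15 mg/kg. Without replicate 2 there were 147 (1.03%), 83 higher (0.584%) and 64 lower (0.45%), and 59 genes were called both times. Of the 21 CAR and PXR targets, 12 rose with all arrays and 14 without replicate 2, and of the 14 AhR targets 1 and 2. Ces2c rose by 2.42 (1.91 to 2.92, adjusted p = 1.1e-09) with all arrays and by 2.80 without replicate 2, and Cltrn by 2.61 and 3.29. Sult1e1 passed the test without replicate 2 and not with it, at 2.98 (2.04 to 3.93, adjusted p = 3e-05) against 1.82 (0.56 to 3.07, adjusted p = 0.22), and Cyp1a2 likewise (0.68, adjusted p = 0.036, against 0.61, adjusted p = 0.083). Among the genes that fell were Lcmt1, a leucine carboxyl methyltransferase of phosphatase regulation (-1.17 and -1.29), and Igf2bp3, an oncofetal RNA-binding protein (-0.70 and -0.78). The count of calls depended on the arrays in the fit, with 6 when only DE-71 arrays were used. A near-identical pair of 15 mg/kg arrays was averaged, and a further 15 mg/kg array (replicate 5) differed from a 50 mg/kg array by only 0.124 log2 units over the 300 variable genes. Which of these doses that pair of arrays represents was not tested.

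At the matched dose of 0.1 mg/kg the response to DE-71 was set against that to BDE-47, each against its own controls. No gene differed between the responses by limma (0 of 14217, 0.0%), with or without replicate 2, and 644 and 627 genes (4.53% and 4.41%) had an unadjusted p below 0.05. BDE-47 at this dose called 0 genes by itself. For Cyp1a1 the responses differed by 3.40 (1.75 to 5.06, adjusted p = 0.48), and by 2.69 (1.16 to 4.23, adjusted p = 0.69) without replicate 2. The BDE-47 controls had Cyp1a1 at 8.66 to 10.84, above the 4.41 to 8.05 of the DE-71 controls, and the BDE-47 arrays at 0.1 mg/kg at 6.80 to 9.62. These levels come from agents that may have been normalized apart, so no test was made across them. Ces2c responses differed by 0.82 (0.12 to 1.51) and 0.44 (-0.15 to 1.03), and those of Gbp2 by 1.2 (0.44 to 1.96) and 1.37 (0.60 to 2.14), with adjusted p-values of 0.69 to 1.0. Intervals of this width do not show that the mixture and the congener act alike.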

How the data were processed

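The authors deposited log2 expression values per probe set of an Affymetrix rat array, made with RMA per the submitters' processing notes; which arrays were normalized together is not given in the sources used here. Array medians over the genes were 6.19 to 6.43 log2 units in the 10 arrays; arrays have no counting depth, so their number limits precision. Of 31099 probe sets, 57 controls were left out, and a gene (14217) was represented by its brightest single-gene probe set. Probe sets shared by genes, among them Cyp2b1 and Cyp2b2, were tested apart.

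Group means of all 15 groups were fitted with limma 3.58.1 in R 4.3.3 (lmFit, eBayes), with arrays of a group that were nearly identical replaced by their mean (a pair at DE-71 15 mg/kg and a pair at BDE-47 0 mg/kg, none at DE-71 0 or 0.1 mg/kg). Two-sided p-values received the Benjamini-Hochberg adjustment across all genes, and genes were called below 0.05. Intervals are 95% confidence intervals. The unit of differences is log2, treated minus control. The fit was tested on simulated data. Dose members and the 31 gene lists (470 of 541 entries measured) were chosen with earlier results of these data known.

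Genes were named by rule: list members with the lowest p (up to 3 per list), 34 index genes, up to 6 non-overlapping genes per direction with a mean of at least 6, 8 per direction in which replicate 2 lay farthest from its group, and up to 5 called per direction in other contrasts. Alternatives changed arrays in the fit, replicates, pairing by number, normalization, the filter on dim genes, the probe set rule, the variance prior, array weights and the threshold.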

Additional observations from a re-analysis of the deposited data

Results flagged for a closer look

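Dixon's test set 1 array apart from the other 4 of its dose in 20 of 176 groups of 5 values, which chance does in about 1 of 20 groups. The groups were 53 genes and the gene lists at 0 and 0.1 mg/kg. Part of the genes had been named for their values in replicate 2 of 0.1 mg/kg, so the number of flags on that array carries no weight.

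Replicate 2 of 0.1 mg/kg was apart on the high side in Cyp2c7 (12.88), Cyp3a23-3a1 (13.41), Ces2c (10.42), Cltrn (6.31), Sult1e1 (9.47), Cyp2c11 (9.38), Sult2a2 (9.73) and Wfdc21 (9.0). It was apart on the low side in Qsox1 (6.36), and its median over the genes raised by phenobarbital was apart as well (0.58).

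Replicate 3 was apart in the interferon genes Irf7 (8.18) and Mx1 (6.25), on the low side in Foxl2 (6.46), and in the list medians of thyroid hormone handling (0.17) and of pancreas and gut markers (-0.21). Replicate 4 was apart in Hmox1 (10.03) and in the acute phase list (-0.07, low), and replicate 5 in the p53 targets (0.03, low). Among the controls, replicate 1 was apart in Ube2m (8.45) and replicate 3 in the stellate cell markers (-0.25, low).

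Among the genes checked, Cyp3a23-3a1 and Maoa lay on opposite sides of the respective control means in all arrays of DE-71 and of BDE-47 at 0.1 mg/kg. For Cyp3a23-3a1 the mean deviation was 0.24 with DE-71 (0.15 to 0.57) and -0.30 with BDE-47 (-0.68 to -0.06). For Maoa it was 0.41 (0.20 to 0.72) and -0.29 (-0.73 to -0.02), and the difference between the responses was 0.72 (0.33 to 1.10), with an adjusted p of 0.64 over all genes by limma and 0.79 without replicate 2.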

How the results depend on the processing

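The absence of calls between 0.1 and 0 mg/kg held under most alternatives. Leaving out 1 array at a time gave 0 to 1 called genes, which were Smad9 without replicate 3 of 0 mg/kg (-0.55, adjusted p = 0.036) and Cyp1a1 without replicate 1 of 0.1 mg/kg (2.91, adjusted p = 0.046), the latter taking the count of called index genes from 0 to 1. The other alternatives called 0 genes. Between same-numbered arrays of 0 and 0.1 mg/kg the correlations of their deviations were 0.06, -0.12, 0, 0.11 and 0.41 in replicates 1 to 5. Between arrays of different number they ran from -0.54 to 0.6, so these values do not show a pairing by number. A fit with the replicate number as a block called 0 genes (lowest adjusted p 0.99). In that fit 14 of 22 interferon genes had an unadjusted p below 0.05 upward, beside 290 of 14217 genes. The difference between the DE-71 and BDE-47 responses gave 0 calls in its 18 alternatives, with a lowest adjusted p of 0.073.

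Calls between 15 and 0.1 mg/kg moved most. They ran from 39 to 147 when 1 array was left out, with 40 without replicate 1 of 0.1 mg/kg, 39 without replicate 4, 136 without replicate 5 and 147 without replicate 2. They were 6 with DE-71 arrays only, 227 with the 74 arrays as separate samples and 130 at an adjusted p below 0.1. Leaving out replicate 2 of both 0.1 and 0 mg/kg, an alternative chosen after seeing the data, gave 150.

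Directions turned in a few genes, none of them called. Cyp1b1 ran from -0.14 to 0.0 and Cyp2a3 from -0.62 to 0.35 when 1 array was left out, and Cyp2a3 was at 0.18 with array weights. Sult1e1 ran from -0.16 to 1.4, and was at -0.16, -0.15 and -0.02 in the alternatives chosen after seeing the data. In that order, replicate 2 of 0.1 mg/kg was left out with only the 10 arrays fitted, then replicate 2 of 0.1 and 0 mg/kg. Last came replicates 2 and 3 of 0.1 mg/kg. Scd was at -0.40 with replicate 2 of both 0.1 and 0 mg/kg left out. The cause of these shifts was not tested. Over 22 alternatives the median difference stayed between 0.07 and 0.26 for CAR and PXR targets, 0.03 and 0.16 for AhR targets, and 0.33 and 0.62 for interferon genes.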
